A study of Mus musculus with 12 samples.

Results

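The core circadian clock genes described here are Arntl, Clock, Npas2, Per1, Per2, Per3, Cry1, Nr1d1, Nr1d2 and Dbp. All 10 were found by their gene names in a hepatic transcriptome of 22906 genes, as the sum of the FPKM of the 84 transcripts that carry these names. FPKM is the number of fragments scaled to transcript length and to the sequenced library. The genes were chosen with their values in these livers known, so their levels and differences are given as a description, with standard errors and without a test.

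The livers came from 12 male C57BL/6J mice, 3 in each of 4 groups, which were housed singly and were 21 weeks old after 16 weeks on their diet. The ND mice ate a normal diet and the HFD mice a high-fat diet. The CLE mice ate the high-fat diet with 1.5% (w/w) leaf extract of Chrysanthemum morifolium Ramat, and the LU mice ate it with 0.003% (w/w) luteolin, a flavone. All groups were kept in a 12-h light and dark cycle and were fasted before the livers were taken. The hour at which each liver was taken is not given in the sources used here. Differences between groups in genes that cycle over the day therefore cannot be told apart from differences in that hour. The mice sequenced were picked by the authors as representative of larger groups. Whole liver was sequenced, so fewer cells of a type and less RNA per cell cannot be told apart.

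The circadian clock is a loop of transcription factors that runs in nearly every cell. ARNTL (also called BMAL1) pairs with CLOCK or NPAS2 and switches on the Per, Cry and Nr1d genes and Dbp through a DNA element called the E-box. PER and CRY proteins then block that pair, while NR1D1 and NR1D2 (REV-ERB alpha and beta) repress Arntl, Clock and Npas2 through elements that ROR proteins activate, and DBP binds another element, the D-box. Transcripts of Arntl and of Dbp or Nr1d1 therefore peak at nearly opposite times of day in liver, and both food intake and glucocorticoids can shift the liver clock.

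These 3 elements were searched for as letters on both strands in promoter windows of 300 bases (RefSeq, GRCm38.p6), which were present for 9 of the 10 genes, Per2 being the other. The palindrome CACGTG (E-box) lay in windows of Per1 and Cry1, against 7.15% of all 32851 windows. The D-box, searched as TTATGTAA or TTACGTAA, lay in the Per3 window in 2 copies, against 1.06% of all windows. The ROR element core, searched as TAGGTCA or TGGGTCA, lay in 1 of the 2 windows of Arntl, against 6.45% of all windows. The bases before the start sites of Cry1 (chr10:85185055-85185304, minus strand), Per1 (chr11:69098699-69098948, plus strand) and Per3 (chr4:151044666-151044915, minus strand) are shown because they hold these letters. Ciart (chr3:95882229-95882478, minus strand), a clock repressor outside the 10 genes that is described further on, is shown because it holds 3 E-boxes. Of Arntl, the 27 bases around the ROR element core are shown (chr7:113207531-113207557, plus strand), and capitals mark the elements.
Cry1: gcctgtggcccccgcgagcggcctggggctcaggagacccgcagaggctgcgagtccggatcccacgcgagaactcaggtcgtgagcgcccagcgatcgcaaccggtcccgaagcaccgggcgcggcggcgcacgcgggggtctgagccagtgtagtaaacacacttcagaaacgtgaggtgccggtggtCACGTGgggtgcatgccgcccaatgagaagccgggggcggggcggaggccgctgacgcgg
Per1: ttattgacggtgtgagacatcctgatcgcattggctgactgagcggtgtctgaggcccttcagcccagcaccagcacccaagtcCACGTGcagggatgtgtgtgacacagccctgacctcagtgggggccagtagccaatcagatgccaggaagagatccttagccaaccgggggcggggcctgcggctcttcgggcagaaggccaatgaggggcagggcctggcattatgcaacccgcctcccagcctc
Per3: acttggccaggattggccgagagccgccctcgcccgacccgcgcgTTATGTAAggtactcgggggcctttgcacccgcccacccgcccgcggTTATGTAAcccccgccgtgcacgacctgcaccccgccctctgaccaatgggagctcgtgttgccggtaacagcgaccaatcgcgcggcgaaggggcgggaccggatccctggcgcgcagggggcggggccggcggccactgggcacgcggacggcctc
Ciart: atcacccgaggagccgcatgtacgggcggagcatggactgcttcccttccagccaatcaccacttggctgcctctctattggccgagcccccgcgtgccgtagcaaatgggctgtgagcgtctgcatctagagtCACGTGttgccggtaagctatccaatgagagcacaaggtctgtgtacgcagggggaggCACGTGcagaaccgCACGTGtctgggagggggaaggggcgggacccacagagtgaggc
Arntl: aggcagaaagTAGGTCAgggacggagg
A match of letters is not a binding site, and windows without a match may hold other forms of the same elements.

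ARNTL is the partner without which the loop does not run, and its gene (chr7:113207465-113314126) was highest in livers of the ND group. Arntl was 5.87, 3.83 and 9.13 FPKM in ND mice 2, 3 and 4, and 2.82, 4.58 and 1.93 FPKM in HFD mice 12, 15 and 18. It was 2.35, 2.39 and 2.62 FPKM in CLE mice 2, 4 and 11, and 1.57, 1.73 and 2.60 FPKM in LU mice 2, 3 and 8. Every CLE and LU liver was thus below every ND liver, while the HFD livers overlapped all other groups. The group means were 6.28 ± 2.67, 3.11 ± 1.35, 2.45 ± 0.15 and 1.97 ± 0.55 FPKM (SD, n = 3) in ND, HFD, CLE and LU. The spread was unequal, with the highest ND liver at 2.38 times the lowest and the highest CLE liver at 1.11 times the lowest.

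CLOCK is the partner of ARNTL (chr5:76209868-76304792). Clock was 11.9, 13.4 and 14.1 FPKM in the ND livers, 8.19, 11.4 and 8.39 in HFD, 7.73, 5.76 and 6.76 in CLE, and 5.12, 6.06 and 7.32 in LU. No HFD liver reached an ND liver, and no CLE or LU liver reached an HFD liver. On the log2(FPKM + 1) scale, Clock differed by -0.46 (SE 0.16) between HFD and ND, by -0.41 (SE 0.18) between CLE and HFD, and by -0.53 (SE 0.19) between LU and HFD. This order did not hold for all Clock transcripts. The reference transcript, which spans the gene, was at 6.87, 3.89, 1.54 and 1.26 FPKM in ND, HFD, CLE and LU. The most abundant transcript, an assembled form that starts inside the gene and covers its 3′ part, was at 2.85, 3.62, 4.21 and 3.43 FPKM, with no fall from ND to the other groups.

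NPAS2, the other partner of ARNTL (chr1:39193731-39363236), was expressed at the lowest level of the 10 genes, between 0.294 and 0.903 FPKM in the 12 livers. Its group means were 0.704 ± 0.288, 0.615 ± 0.244, 0.482 ± 0.116 and 0.465 ± 0.255 FPKM (SD, n = 3) in ND, HFD, CLE and LU. The means followed the order of Arntl and Clock, but the groups overlapped in all 6 comparisons and the differences were smaller than the spread.

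PER1 is a repressor of the loop whose transcription also answers glucocorticoids and other hormones (chr11:69095217-69109960). Per1 was 4.95, 2.13 and 3.52 FPKM in ND, 2.99, 7.63 and 6.04 in HFD, 3.88, 12.7 and 5.63 in CLE, and 7.61, 6.21 and 9.03 in LU. Only LU stood clear of ND, by 0.96 (SE 0.30) on the log2 scale, and CLE mouse 4 lay far above the other CLE livers. Per1 did not follow the other Per genes from mouse to mouse, as described with the correlations.

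PER3 is the Per protein least needed for the rhythm itself (chr4:151003652-151044665), and its window above held both D-boxes. Per3 was 0.943, 3.35 and 0.673 FPKM in ND mice 2, 3 and 4, and 3.79, 2.31 and 4.93 in the HFD livers. It was 5.80, 8.81 and 4.42 FPKM in CLE and 7.16, 5.04 and 3.52 in LU. All CLE and LU livers exceeded all ND livers, though LU and ND overlapped under median-of-ratios scaling, and the 2 lowest livers were ND mice 2 and 4. The highest of the 12 livers was at 13.1 times the lowest. Restricted to reference transcripts, which hold 14.7% of the Per3 level, the differences were smaller, 0.46 for CLE and 0.28 for LU against ND compared with 1.56 (SE 0.50) and 1.33 (SE 0.49) for the sum.

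PER2 is a central repressor of the loop (chr1:91415982-91459324). By its gene name, Per2 was 4.04, 8.01 and 3.44 FPKM in ND, 8.96, 7.06 and 8.41 in HFD, 8.50, 14.8 and 12.4 in CLE, and 9.08, 9.75 and 8.27 in LU. These sums include 4 assembled transcripts on the opposite strand of the gene (chr1:91442704-91453088), which make up 35.4% of the mean level. The library kit is not stated to keep the strand, so reads of both strands cannot be told apart where they overlap.

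The transcripts on the strand of Per2 alone were at 1.36, 4.11 and 1.16 FPKM in ND, 6.33, 5.31 and 6.01 in HFD, 4.57, 10.2 and 9.54 in CLE, and 6.57, 6.98 and 4.16 in LU. Here every HFD, CLE and LU liver exceeded every ND liver, and the HFD livers, which overlapped ND in the sum, no longer did. The gap between LU and ND was narrow, with LU mouse 8 at 4.16 and ND mouse 3 at 4.11 FPKM. Dividing by the median-of-ratios factors of these 2 livers (1.056 and 0.9637) turns their order, so LU and ND overlap under that scaling. The difference between HFD and ND was 1.21 on the log2 scale for this strand and 0.64 (SE 0.33) for the sum. The opposite-strand transcripts ranged from 1.76 to 4.58 FPKM, with means of 2.95, 2.26, 3.77 and 3.13 FPKM in ND, HFD, CLE and LU. They did not follow the same-strand order, as ND livers were above HFD livers on average.

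**Figure D1:**
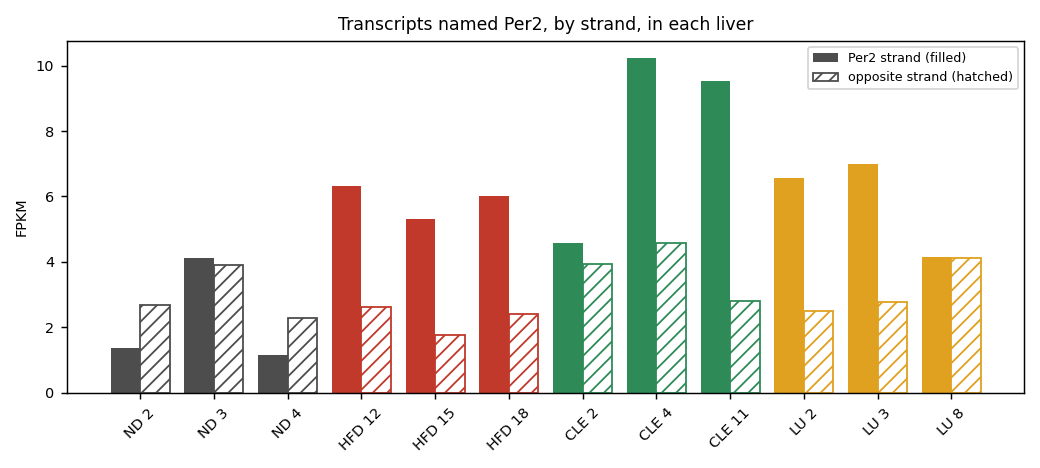
FPKM (vertical axis) of the transcripts named Per2 in each of the 12 livers, with the Per2 strand as filled bars and the opposite strand as hatched bars. In ND mice 2 and 4 the opposite-strand bars are the taller ones (2.68 against 1.36 FPKM and 2.29 against 1.16 FPKM), while in all HFD livers the Per2 strand is the taller.

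CRY1 is the strongest repressor of ARNTL and CLOCK (chr10:85131700-85185064), and its transcript is known to peak later than those of the Per genes. Cry1 was 3.20, 2.13 and 3.67 FPKM in ND, 2.71, 3.05 and 2.18 in HFD, 2.37, 2.70 and 3.18 in CLE, and 2.05, 1.56 and 2.13 in LU. All LU livers lay below all HFD and all CLE livers, the only separation between CLE and LU among the 10 genes, at 0.36 (SE 0.13) on the log2 scale. Under median-of-ratios scaling the LU and HFD livers overlapped in Cry1 and the LU and ND livers did not. The 2 Cry1 transcripts moved in different directions. The reference transcript was at 2.74, 2.27, 1.95 and 1.12 FPKM in ND, HFD, CLE and LU, and the assembled one at 0.261, 0.378, 0.796 and 0.796 FPKM. For the reference transcript alone, LU differed from ND by -0.86 in place of -0.44, and CLE from LU by 0.53.

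NR1D1 and NR1D2 are the repressors of Arntl, and Nr1d1 (chr11:98767932-98775333) was the most abundant of the 10 genes. Nr1d1 was 23.4, 47.2 and 25.1 FPKM in ND, 48.3, 23.5 and 43.7 in HFD, 64.8, 57.6 and 52.9 in CLE, and 52.4, 42.6 and 53.2 in LU. The livers of ND mice 2 and 4 and HFD mouse 15 lay at 23.4 to 25.1 FPKM, with the remaining 9 livers at 42.6 or more, and all CLE livers exceeded all HFD and ND livers. The gene overlaps the 3′ end of Thra on the opposite strand, and reads from that stretch cannot be told apart without strand.

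Nr1d2 (chr14:18204054-18239127) was 17.95, 29.5 and 17.8 FPKM in ND, 28.9, 23.2 and 28.9 in HFD, 30.4, 33.8 and 24.7 in CLE, and 34.3, 39.7 and 30.3 in LU. All LU livers exceeded all HFD and ND livers, but LU and ND overlapped under median-of-ratios scaling. As with Clock, the transcripts of Nr1d2 moved in different directions. The reference transcript was at 12.4, 13.1, 8.23 and 10.2 FPKM in ND, HFD, CLE and LU, and an assembled transcript at the 3′ end of the gene was at 3.21, 5.34, 12.1 and 15.1 FPKM. The LU against HFD difference was 0.35 (SE 0.15) for the sum and -0.43 for reference transcripts alone. Over the 7384 genes averaging 5 FPKM or more, the median share of a gene's level in reference transcripts was 89.6% to 90.7% in ND and HFD livers and 86.8% to 89.3% in CLE and LU livers. The part of this shift in the Clock, Cry1 and Nr1d2 levels was not tested.

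DBP is an activator that carries the clock signal to metabolic genes (chr7:45705088-45710203), and Dbp had the widest range of the 10 genes. It was 3.01, 21.4 and 2.06 FPKM in ND mice 2, 3 and 4, and 23.1, 6.94 and 29.5 in HFD mice 12, 15 and 18. It was 37.7, 43.9 and 26.0 FPKM in CLE mice 2, 4 and 11, and 50.3, 38.2 and 26.3 in LU mice 2, 3 and 8. ND mice 2 and 4 and HFD mouse 15 were again the lowest 3 livers, and all CLE and LU livers exceeded all ND livers. The highest liver was at 24.4 times the lowest, and within the ND group the ratio was 10.4. The CLE and LU groups differed from ND by 2.47 (SE 0.93) and 2.55 (SE 0.94) on the log2 scale, and HFD from ND by 1.47 (SE 1.08). The last became 0.93 without ND mouse 4 and 2.36 without ND mouse 3. The gene overlaps Sphk2 on the opposite strand, and reads from that stretch cannot be told apart without strand. Known Dbp transcripts held 99.6% of the Dbp level, a share that does not separate the strands.

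**Figure D2:**
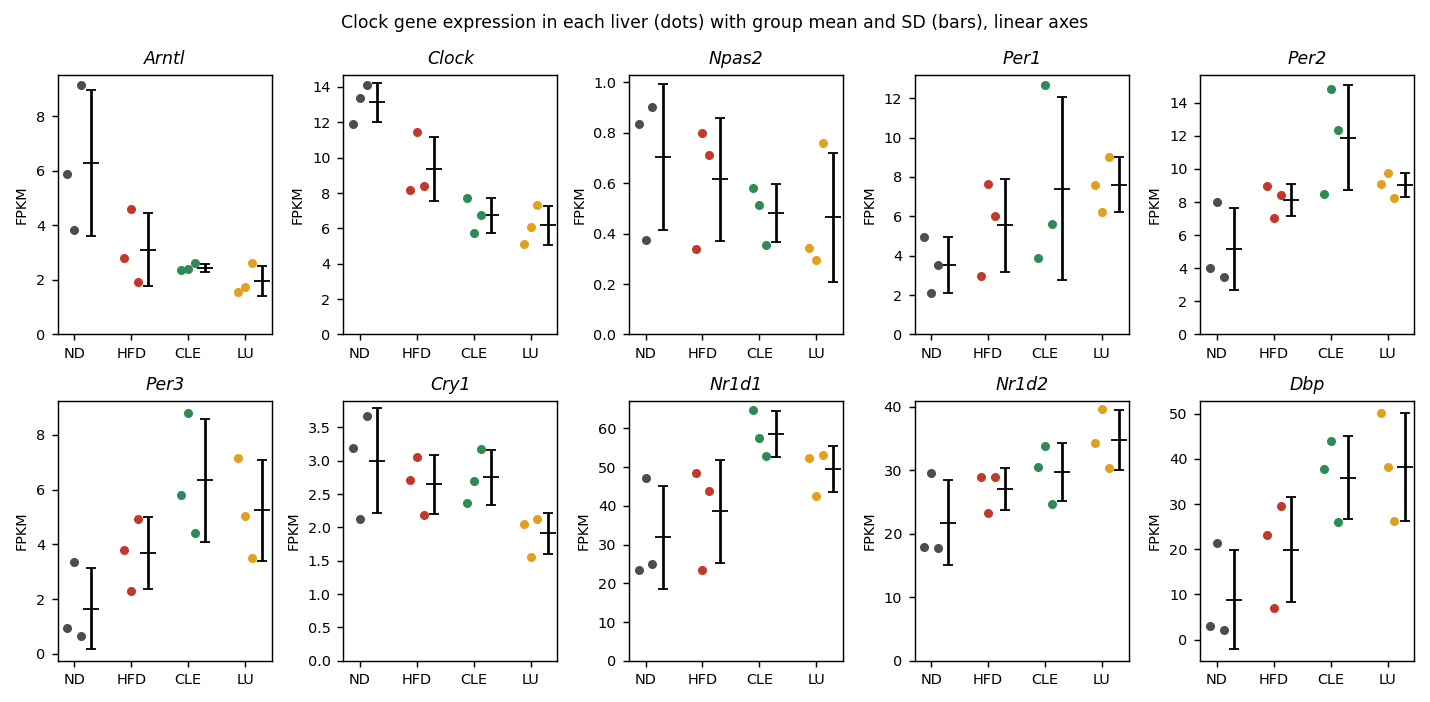
FPKM (vertical axes, linear) of the 10 genes by group (ND, HFD, CLE, LU), with each liver as a dot and the group mean and SD as a bar. Arntl and Clock have their highest means in ND (6.28 and 13.1 FPKM) and Dbp has its lowest (8.83 FPKM), with ND mouse 3 apart from the other ND livers in Dbp and Per3.

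Mouse by mouse, the ratio of Dbp to Arntl, both per length, put the activator side of the loop against its output. The ratio was 0.512, 5.59 and 0.226 in ND mice 2, 3 and 4, 8.22, 1.52 and 15.3 in HFD mice 12, 15 and 18, 16.1, 18.4 and 9.94 in CLE mice 2, 4 and 11, and 32.02, 22.1 and 10.1 in LU mice 2, 3 and 8. No other group had a ratio as low as ND mice 2 and 4, the only livers with more Arntl than Dbp. ND mouse 3 was closer to HFD mouse 12 than to the other mice of its group, and HFD mouse 15 lay between ND mice 2 and 3. The highest ratio within a group exceeded the lowest by 24.8 times in ND, 10.1 times in HFD, 1.85 times in CLE and 3.16 times in LU.

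The ratios of Nr1d1 to Arntl and of Per3 to Arntl placed the same 4 livers lowest, in the order ND mouse 4, ND mouse 2, HFD mouse 15 and ND mouse 3. Dbp and Nr1d1 were positively related over all livers (Pearson r 0.91), less so by rank (Spearman's rho 0.643), and varied by different amounts. In LU mouse 8, the lowest Dbp of the LU group (26.3 FPKM) went with its highest Nr1d1 (53.2 FPKM). The ratio of Dbp to Nr1d1 was 0.128, 0.454 and 0.0822 in the ND livers and 0.495 to 0.959 in the LU livers, as Dbp varied over a wider range than Nr1d1.

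The mean log2(FPKM + 1) of Arntl, Clock and Npas2 minus that of Dbp, Nr1d1, Nr1d2 and Per3 gave 1 value for each liver. The group means of this difference were -0.90 ± 1.05, -2.09 ± 0.81, -2.94 ± 0.29 and -3.02 ± 0.47 (SD, n = 3) in ND, HFD, CLE and LU. Between the highest and the lowest mouse it differed by 1.996 in ND, 1.46 in HFD, 0.58 in CLE and 0.92 in LU. CLE was lower than HFD by 0.85 (SE 0.50), without overlap but by a narrow gap (CLE mouse 11 at -2.66 and HFD mouse 18 at -2.62). It was lower by 0.38 without HFD mouse 15. LU differed from HFD by -0.93 (SE 0.54) with overlap, and by -0.47 without that mouse. CLE and LU differed by 0.08 (SE 0.32), less than the spread within either group.

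**Figure D3:**
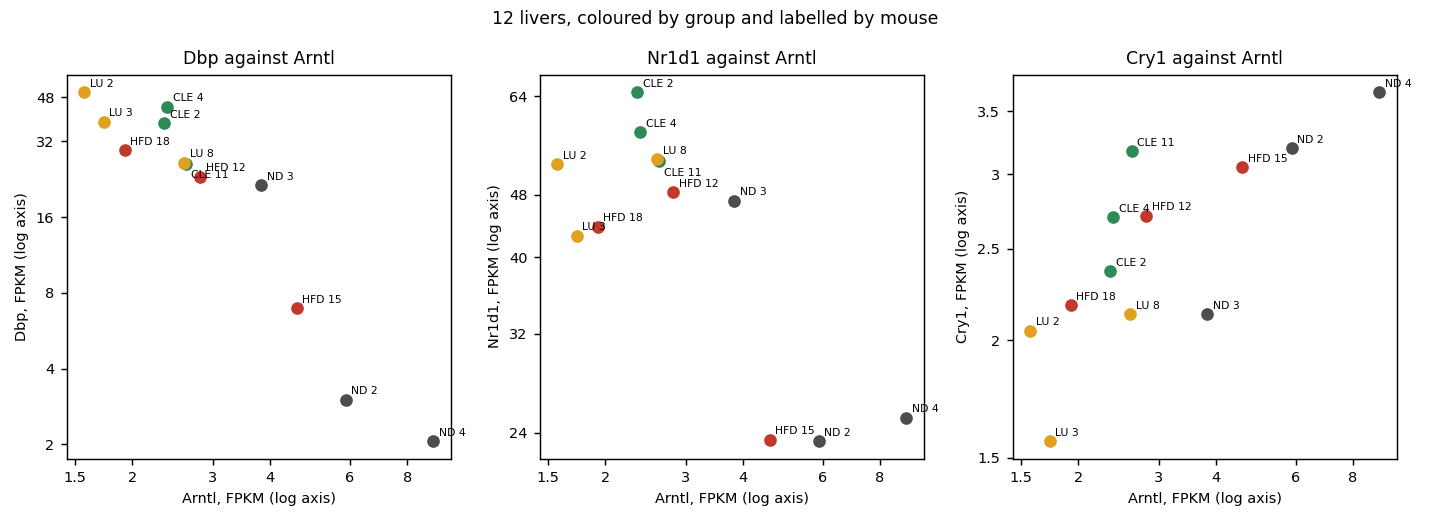
FPKM of Dbp, Nr1d1 and Cry1 (vertical axes, log) against FPKM of Arntl (horizontal axes, log) in the 12 livers, coloured by group and labelled by mouse. Dbp falls as Arntl rises, from 50.3 FPKM in LU mouse 2 to 2.06 FPKM in ND mouse 4, and Cry1 rises with Arntl, from 1.56 to 3.67 FPKM.

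For the 12 livers, the 10 genes were placed in 2 sets and Per1 with their values known, and no clustering was run. Counts of signs within and between the sets therefore depend in part on that choice. The following correlations of log2(FPKM + 1) are given as a description over 12 livers that share their diets within groups and their library scaling. Per2 enters them as the sum by gene name, of which 35.4% on average is on the opposite strand. Arntl, Clock, Npas2 and Cry1 were positively related in 6 of 6 pairs (Pearson r 0.519 to 0.872), and Per2, Per3, Nr1d1, Nr1d2 and Dbp in 10 of 10 pairs (0.768 to 0.968). All 20 pairs between these sets were negative, from -0.954 to -0.445. The weakest, Per2 with Cry1, turned to 0.229 without the 2 livers whose Per2 was farthest from the median. For Arntl and Dbp, r was -0.954, Spearman's rho was -0.951, and r was -0.873 without the 2 livers whose Arntl was farthest from the median. Pairs of Nr1d1 within and between the sets were weaker by rank. With Arntl, r was -0.787 and rho -0.51, and with Cry1, r was -0.54 and rho -0.308.

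These signs were unchanged when group means were subtracted, so that only differences among mice on the same diet remained. The 20 pairs between the sets then ranged from -0.914 (Arntl and Dbp) to -0.304 (Clock and Nr1d1). The relation of Clock to the other genes was weaker within groups, at -0.458 with Dbp compared with -0.831 over all livers. Arntl and Cry1 kept theirs, with r of 0.836 within groups and 0.767 over all livers. The relation of Arntl to Per2 rested largely on 2 livers, as r went from -0.815 to -0.354 without those farthest in Arntl.

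Per1 was placed in neither set. Its r with Dbp was 0.30 over all livers and -0.41 within groups, and with Npas2 0.136 and 0.591. Within the HFD group, mouse 15 had the highest Per1 (7.63 FPKM) and the lowest Dbp (6.94 FPKM), whereas HFD mouse 12 had the lowest Per1 (2.99 FPKM).

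**Figure D4:**
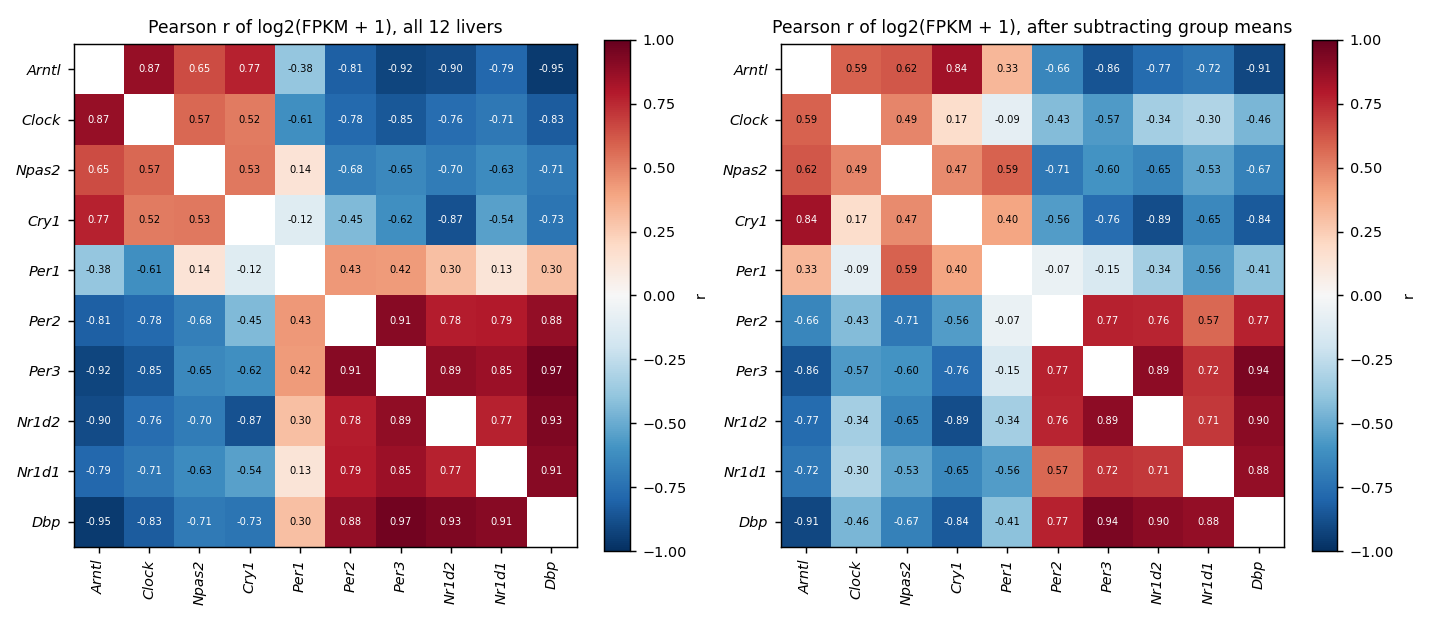
Pearson r (colour and number) between log2(FPKM + 1) of each pair of the 10 genes over all 12 livers (left) and after subtraction of group means (right). With the genes ordered by the chosen sets, blocks of positive r and a negative block between them appear in both panels. Per1 changes from 0.42 to -0.15 with Per3.

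The groups were then compared by whether their livers overlapped. Each count is given beside the share of the 12000 tested genes (those averaging 0.5 FPKM or more) whose groups did not overlap. Per2 was again the sum over both strands. Between HFD and ND, 1 of the 10 genes did not overlap (Clock, lower in HFD), against 36% of all genes. Between CLE and HFD, 2 did not (Clock lower and Nr1d1 higher in CLE), against 31.2%, and between LU and HFD 3 did not (Clock and Cry1 lower and Nr1d2 higher in LU), against 30.1%.

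Against ND, 6 of the 10 genes did not overlap in CLE (42.2% of all genes). Arntl and Clock were lower, and Per2, Per3, Nr1d1 and Dbp were higher. In LU, 7 did not overlap (41.1% of all genes), with Arntl and Clock lower and Per1, Per2, Per3, Nr1d2 and Dbp higher. Between CLE and LU only Cry1 separated, against 7.07% of all genes. With median-of-ratios scaling, which moved the median log2 difference of all genes by 0.13 for HFD, 0.14 for CLE and 0.10 for LU against ND, 5 of the 10 genes did not overlap between CLE and ND (39.4% of all genes), as Per2 overlapped. Between LU and ND 5 did not overlap (40.6% of all genes), 2 higher (Per1 and Dbp) and 3 lower (Arntl, Clock and Cry1), in place of 5 higher and 2 lower. Per2, Per3 and Nr1d2 overlapped there and Cry1 was gained. All comparisons against ND share the same 3 ND livers, and those against HFD the same HFD livers.

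Levels also moved with base composition. Each gene's difference from its mean over all livers was correlated with GC content within each library, over 7381 genes. Spearman's rho was -0.411 to -0.129 in the ND and HFD livers and 0.186 to 0.509 in the CLE and LU livers. These values compare livers with each other and do not give the relation of level to GC content within a liver. The leading transcripts of Dbp (61.6% GC) and Per1 (59.4%) are rich in GC, and those of Clock (42.1%) and Nr1d2 (41.8%) poor, against a median of 50.4%. After a GC correction, Dbp differed between CLE and HFD by 0.66 in place of 1.00 and Clock by -0.21 in place of -0.41. Both also moved without HFD mouse 15, Dbp to 0.41 and Clock to -0.27. Nr1d2 differed between CLE and HFD by 0.33 in place of 0.13, and Per1 by 0.0034 in place of 0.29. Nr1d1 (56.8% GC) differed there by 0.45 in place of 0.65, and by 0.33 without HFD mouse 15. Differences between CLE and ND moved too, to 2.01 from 2.47 in Dbp, 0.59 from 0.92 in Nr1d1 and 0.39 from 0.80 in Per1. Nr1d2 went to 0.58 from 0.46, Arntl to -1.03 from -1.01 and Clock to -0.75 from -0.87.

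The other parts of the clock were followed in 20 genes of the loop that are not among the 10. These were tested with limma on log2(FPKM + 1) with Benjamini-Hochberg adjustment over all 12000 genes. This list and the lists that follow were chosen with earlier results of these data known. A share of a list above that of all genes is therefore a description and not independent support. Between HFD and ND livers, 7 of the 20 genes passed, 6 higher and 1 lower, against 11.8% of all genes. BHLHE40 (DEC1), which represses at E-boxes, had the largest difference on the log2(FPKM + 1) scale, which understates changes of low genes. Bhlhe40 was at 5.11, 7.25 and 8.06 FPKM in ND and 18.8, 21.9 and 20.9 FPKM in HFD, higher by 1.48 (SE 0.24, adjusted p = 0.0019). All HFD livers were clear of all ND livers, including ND mouse 3 and HFD mouse 15, which had left their groups in Dbp.

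Ciart, a repressor of the ARNTL and CLOCK pair with 3 E-boxes in the window shown above, was at 0.156, 0.457 and 0.418 FPKM in ND and 1.61, 1.72 and 3.30 FPKM in HFD. Its mean went from 0.344 to 2.21 FPKM, a larger ratio than that of Bhlhe40, from 6.81 to 20.5 FPKM. Ciart rose by 1.22 (SE 0.34, limma adjusted p = 0.035). Fbxl21, an F-box protein that acts on CRY stability, rose by 1.01 (SE 0.17, limma adjusted p = 0.0027). Hlf, a relative of DBP, rose by 0.70, and Hdac3, the deacetylase that works with NR1D1, by 0.40. Nfil3, which represses at D-boxes, was lower by 0.56 on the log2 scale (-0.56, SE 0.16, limma adjusted p = 0.04).

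In CLE livers, 9 of the 20 genes differed from ND (8 higher), against 26.7% of all genes. Ciart was at 3.79, 10.7 and 4.03 FPKM and exceeded ND by 2.29 (SE 0.34, limma adjusted p = 0.0017). Tef, another relative of DBP, was higher by 1.21, Bhlhe41 (DEC2) by 1.07, Csnk1e, a kinase of PER proteins, by 1.01 and Cry2 by 0.71. Bhlhe40, Fbxl21 and Hdac3 were also higher, and Fbxw11, an F-box protein acting on PER, was lower (-0.81, SE 0.23, limma adjusted p = 0.023).

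In LU livers, 7 genes differed from ND, all higher, against 14.6% of all genes. These were Ciart, Bhlhe40, Tef, Bhlhe41, Csnk1e, Hdac3 and Cry2, with differences from 0.52 (Hdac3) to 1.73 (Ciart). Hlf and Nfil3, which passed in HFD, had differences of 0.03 and -0.50 in LU. No loop gene passed between CLE and HFD (0 of 20, limma, against 5.69% of all genes, 11 at an unadjusted p under 0.05), LU and HFD (0 of 20, against 1%, 5 unadjusted) or CLE and LU (0 of 20, against 0.00833%, 0 unadjusted). The loop genes with the smallest adjusted p among those never called were Rora, Gsk3b and Timeless. Across the 4 groups, limma's F test called 11 of 20, against 23.6% of all genes.

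**Figure D5:**
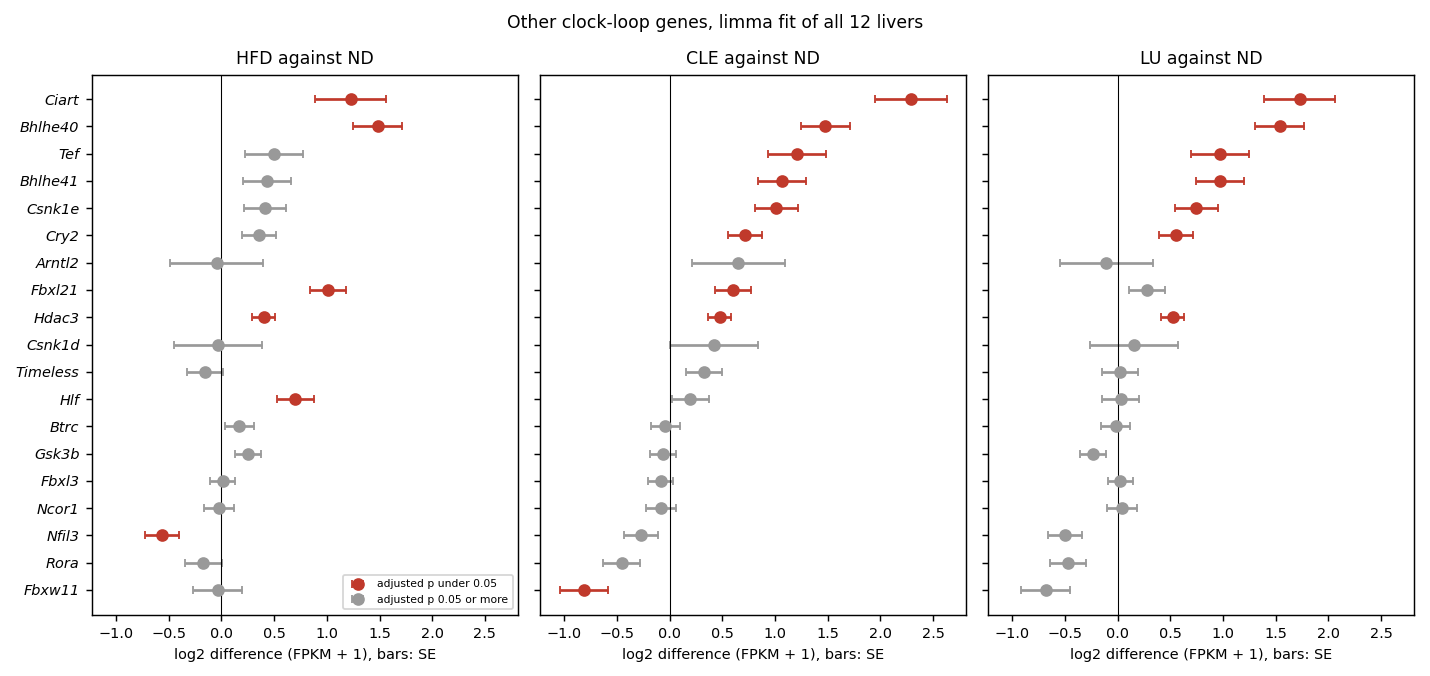
Differences in log2(FPKM + 1) from ND (horizontal axes, points with SE bars) of the clock-loop genes reported here in HFD, CLE and LU livers, with genes of an adjusted p under 0.05 in red. Ciart and Bhlhe40 lie farthest to the right in all 3 panels (1.22 to 2.29 and 1.48 to 1.54), while Tef, Bhlhe41, Csnk1e and Cry2 are red in the CLE and LU panels alone, without a called difference between CLE and HFD or between LU and HFD.

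Of 16 genes whose liver rhythm is known to depend on the clock, 6 passed between HFD and ND (4 higher and 2 lower), which is 37.5% against 11.8% of all genes. Cyp2a5, a cytochrome P450 controlled by DBP and its relatives, was at 37.3, 58.2 and 28.9 FPKM in ND and 553, 443 and 580 FPKM in HFD, higher by 3.68 (SE 0.34, limma adjusted p = 5e-05). Its order differed from that of Dbp, with means of 41.5, 525, 283 and 274 FPKM in ND, HFD, CLE and LU. The means of Dbp were 8.83, 19.9, 35.9 and 38.3 FPKM. HFD mouse 15 had Cyp2a5 at 443 FPKM with Dbp at 6.94 FPKM. Usp2, a deubiquitinase gene under E-box control, rose by 1.34, Upp2, a uridine phosphorylase, by 1.35 and Wee1, a cell cycle kinase, by 0.65. Elovl3, a fatty acid elongase, was lower (-1.48, SE 0.22, limma adjusted p = 0.0014), as was Gys2, the liver glycogen synthase (-0.41, SE 0.11, limma adjusted p = 0.034).

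3 of these 16 genes differed between a supplemented group and HFD, 2 in CLE (against 5.69% of all genes) and 2 in LU (against 1%). Gys2 was at 61.3, 55.8 and 63.0 FPKM in HFD, 98.5, 98.1 and 85.5 in CLE and 108, 110 and 89.3 in LU, without overlap. It rose by 0.64 in CLE (SE 0.11, limma adjusted p = 0.018) and by 0.75 in LU (SE 0.11, limma adjusted p = 0.0088). Elovl3 rose by 1.17 in CLE (SE 0.22, limma adjusted p = 0.022), with 0.64 in LU (limma adjusted p = 0.15). Cyp7a1, the rate-limiting enzyme of bile acid synthesis, was lower in LU than in HFD (-1.35, SE 0.27, limma adjusted p = 0.04), with -0.95 in CLE (limma adjusted p = 0.056). Between CLE and LU none of the 16 passed in limma, with 2 at an unadjusted p under 0.05.

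Against ND, 4 of the 16 passed in CLE (Usp2 and Cyp2a5 higher, Cyp7a1 and Insig2 lower), a share of 25% that was no higher than the 26.7% of all genes. In LU, 5 passed (Usp2 and Cyp2a5 higher, Cyp7a1, Elovl3 and Ppara lower), 31.2% against 14.6% of all genes. Usp2 was highest in CLE mouse 4, at 9.40 FPKM, the liver with the highest Per1, Per2, Per3 and Ciart. The library of CLE mouse 4 also had the highest rho with GC content (0.509) of all livers. It had the lowest median share in reference transcripts (86.75%) and the largest FPKM sum over genes (634618). The part of these library features in the high values was not tested. Insig2, a regulator of sterol synthesis, had a difference of -0.88 and Ppara, the fasting-response receptor, of -0.62. Por, Nampt and Cdkn1a were the uncalled genes with the smallest adjusted p.

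Signals that can reset the liver clock were looked at in 2 further lists. None of 8 glucocorticoid-responsive genes passed limma in any of the 6 comparisons. These were HFD against ND, CLE against HFD, LU against HFD, CLE against ND, LU against ND and CLE against LU. In that order, 1, 2, 3, 0, 0 and 0 of the 8 genes had an unadjusted limma p under 0.05. Of all genes, 11.8%, 5.69%, 1%, 26.7%, 14.6% and 0.00833% passed. A list of 8 genes is too short to set 0 calls apart from the lower shares, and glucocorticoid action was not tested. The metallothionein gene Mt2 had the smallest adjusted p and ranged from 22.4 to 1182 FPKM, followed by Mt1 and Zbtb16. Of 10 temperature-responsive genes, Hspb1, a small heat shock protein, was the only one to pass, higher by 1.35 in HFD, 1.72 in CLE and 1.60 in LU against ND (limma adjusted p = 0.015, 0.004 and 0.0087). This share of 10% was below that of all genes in each of these comparisons (11.8%, 26.7% and 14.6%). Cirbp and Rbm3, whose transcripts follow body temperature, differed from ND by -0.35 to 0.08 and passed in no comparison. Srsf5, Hspa8 and Hspa1b were the uncalled genes with the smallest adjusted p.

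Over the 4 lists together, 14 of 54 genes passed between HFD and ND, 2 between CLE and HFD, 2 between LU and HFD, 14 between CLE and ND, 13 between LU and ND and 0 between CLE and LU in limma (17, 19, 14, 17, 20 and 2 at an unadjusted p under 0.05). The share of the 54 genes was 25.9% between HFD and ND against 11.8% of all genes, and 24.1% between LU and ND against 14.6%. It was 25.9% between CLE and ND against 26.7% of all genes and 3.7% between CLE and HFD against 5.69%, so neither exceeded the share over all genes. Between LU and HFD it was 3.7% against 1%. The 14 genes of HFD against ND became 6 without ND mouse 2, ND mouse 4, HFD mouse 12 or HFD mouse 18, and 9 without HFD mouse 15. The 13 genes of LU against ND became 7 without ND mouse 2 or ND mouse 4 and 8 without LU mouse 2 or LU mouse 3. The 2 genes of CLE against HFD became 0 without HFD mouse 12, HFD mouse 15 or CLE mouse 4 and 6 without CLE mouse 2. The 2 genes of LU against HFD became 0 without HFD mouse 15, LU mouse 2 or LU mouse 3, 1 without ND mouse 2, HFD mouse 18 or CLE mouse 11, and 5 without LU mouse 8.

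Scaling ended some of these calls without turning a direction. With median-of-ratios scaling, Hlf, Hdac3, Ciart, Upp2 and Wee1 were among the genes that no longer passed between HFD and ND (limma adjusted p from 0.0504 for Upp2 to 0.159 for Hdac3). Calls were also lost for Fbxl21 between CLE and ND (0.0511) and for Tef (0.0573) and Cry2 (0.0868) between LU and ND. Newly past the threshold and lower were Cyp7a1 between CLE and HFD, Rora between CLE and ND, and Rora, Nfil3 and Fbxw11 between LU and ND. Bhlhe40, Cyp2a5 and Usp2 passed against ND in HFD, CLE and LU under both scalings. With median-of-ratios scaling, 5 higher and 3 lower genes of the lists passed between HFD and ND, in place of 11 and 3, and 8 higher and 6 lower between LU and ND, in place of 10 and 3. Of all genes called, 1169 were higher and 243 lower between HFD and ND with the deposited values and 608 and 496 after that scaling. Between CLE and ND these were 2470 and 735, and 1227 and 1676, and between LU and ND 1304 and 444, and 730 and 1072.

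Outside any list, the genes most like Arntl and Dbp over the 12 livers were named by Pearson's r among 10956 genes averaging 1 FPKM or more. Most like Arntl were Desi2 (r = 0.948), Slc45a3 (0.942), Bhmt2 (0.935), Msl2 (0.933) and Pxmp4 (0.930). Desi2 had means of 11.04, 6.72, 5.56 and 5.08 FPKM in ND, HFD, CLE and LU. Most like Dbp were Hsdl1 (0.964), Gorasp1 (0.959), Miip (0.942), Spout1 (0.934) and Neu1 (0.933). Hsdl1 had means of 3.21, 3.67, 3.89 and 4.16 FPKM, a much narrower range than that of Dbp. These values describe likeness across livers that differ in diet, scaling and GC dependence at once.

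The libraries as a whole showed the tissue they were labelled with. The 7 hepatocyte markers summed to 12800 to 20530 FPKM in all livers, but albumin was listed at 0 in 11 of 12, so a gene listed at 0 may be a failure of the estimate. Stellate cell markers summed to 87.1 to 125.2 FPKM in ND and 139.2 to 210.9 FPKM in the other groups, and Kupffer cell markers to 104.4 to 107.7 and 116.4 to 220.1 FPKM. Adipocyte markers summed to 0.824 to 1.26 FPKM in the LU livers and to at most 0.172 FPKM elsewhere. Their part in the clock gene levels was not tested. The depth of the libraries is unknown, as the deposited values hold no counts.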

How the data were processed

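Liver RNA of 12 mice was sequenced as paired reads. The authors mapped them with TopHat2 2.0.12 and Bowtie2 2.2.3, ran Cufflinks 2.2.1 to assemble transcripts, and deposited an FPKM value for each transcript. The genome build, and whether the FPKM values include the normalization factors the methods name, are not given in the sources used here. Of the known transcripts in GENCODE M21 (GRCm38), 87.6% have its start and end, and it was used for names and coordinates. The table names 30 samples in its assembly and holds 12. FPKM hold no read counts, so depth is unknown.

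FPKM were summed over 142638 transcripts of 22906 genes, with 9572 transcripts left out (opposite strand, intronic or without a gene), and by gene name for the 10 clock genes. Other genes, where they averaged 0.5 FPKM or more, were tested by limma 3.58.1 (R 4.3.3) as log2(FPKM + 1). A single fit held all 12 mice and modelled the variance trend, and two-sided p-values were adjusted by Benjamini-Hochberg at 0.05. The fit was tested on simulated data. Fold differences on this scale understate those of low genes. The mice are separate animals, 3 in each group.

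The clock genes and lists were chosen with earlier results of these data known. Genes named from the lists are those called in any comparison (at most 12 a list) and the 3 with the smallest adjusted p among the rest, beside the 5 genes most like Arntl and Dbp. Arntl2, Csnk1d, Cirbp, Rbm3, albumin, Thra and Sphk2 were named after their values were seen. A called gene of the loop list is counted but not reported here by name. Alternatives were a pseudocount of 0.1, no filter, a filter at 5 FPKM, scaling by median of ratios or quantiles, the compared groups alone, no variance trend, single or reference transcripts, each mouse left out and a block of mouse numbers. A GC correction and Per2 and Arntl without opposite-strand and intronic transcripts were added after seeing the data. Mice of the same number did not deviate together (r -0.277 to 0.221 over 5 pairs), so the numbers were not taken as pairs.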

Additional observations from a re-analysis of the deposited data

How the results depend on the processing

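The directions of Arntl, Dbp and Per3 between CLE or LU and ND held in every setting run, and of 420 differences of single clock genes 22 changed sign under other settings than leaving out a mouse. These included Clock and Nr1d2 when single transcripts replaced sums, and Nr1d2, Npas2, Cry1 and Per3 with reference transcripts alone. Per2 between LU and HFD went from 0.14 to -0.02 without opposite-strand transcripts. The difference between the Arntl and the Dbp side kept its direction in all 42 values under these settings. Leaving out 1 mouse turned 9 of 60 differences of single genes, such as Per1 between CLE and HFD from 0.29 to -0.13 without CLE mouse 4, and 1 of 6 differences between the sides, that of CLE against LU, from 0.08 to -0.12 without LU mouse 2. The cause of the changes in counts below was not tested. Counts are genes passing limma, first of the 54 listed genes and then of all tested. Without a filter on low values the listed counts were 9 (HFD against ND), 1 (CLE against HFD), 1 (LU against HFD) and 8 (LU against ND), and of all genes 106 passed in CLE against HFD, 53 in LU against HFD and 3 in CLE against LU. At a mean of 5 FPKM, 4 listed genes passed in CLE against HFD and 9 in CLE against ND, and 0 of all genes in CLE against LU (311 at an unadjusted p under 0.05). For HFD against ND, 8 listed genes passed with median-of-ratios scaling, 9 with quantile normalization, 8 with the highest-mean transcript and 9 with reference transcripts, and 665 and 734 of all genes with these transcripts. Quantile normalization gave 1032 genes in CLE against HFD and 2 in CLE against LU. Transcript choice gave 1 listed gene and 256 of all genes in CLE against HFD (highest-mean), 4 listed genes in LU against HFD (reference), and 2 of all genes in CLE against LU with either. With 2 groups alone, 1 listed gene and 99 of all genes passed in CLE against HFD, 284 of all in LU against HFD and 1753 in CLE against ND. After GC correction 340 genes passed in CLE against HFD, 2082 in CLE against ND (1120 higher, 962 lower), and 1 listed gene in LU against HFD. Leaving out each mouse gave listed counts of 6 to 14 (HFD against ND), 0 to 6 (CLE against HFD), 0 to 5 (LU against HFD), 7 to 17 (LU against ND) and 9 to 21 (among 4 groups), and counts of all genes of 668 to 1680, 30 to 2270, 22 to 528, 1574 to 3791 (CLE against ND), 642 to 2569 (LU against ND) and 1 to 3 (CLE against LU). With the mouse number as a replicate block in the 9 ND, CLE and LU mice, listed counts were 5 (CLE against ND), 0 (LU against ND, limma, 22 at an unadjusted p under 0.05) and 0 (CLE against LU), and 267, 24 and 2 of all genes passed. The numbers do not pair the mice, and HFD mice share no number with the rest.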

Other observations

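In the loop, 2 genes had single livers far above the rest. Csnk1d, a kinase of PER proteins, was at 78.7 FPKM in CLE mouse 11 and 48.6 FPKM in LU mouse 8, against 20.5 to 26.4 FPKM in the other 10 livers. Arntl2, a paralog of Arntl, was at 4.93 FPKM in CLE mouse 2 and at 0.164 to 0.555 FPKM in the others. Neither gene passed in any comparison (limma adjusted p of 0.27 or more).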
